A study of Mus musculus with 12 samples.

Results

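The cytosines of the mouse mitochondrial ribosomal RNAs were taken as every plus-strand cytosine of the mitochondrial genome that was listed in at least 1 library between the start of mt-Rnr1 and the end of mt-Rnr2. In GRCm38 this stretch is chrMT:70-2675. It holds mt-Rnr1, the 12S rRNA of the small mitochondrial ribosomal subunit (chrMT:70-1024), mt-Tv, the valine tRNA gene (chrMT:1025-1093), and mt-Rnr2, the 16S rRNA of the large subunit (chrMT:1094-2675). Of its 508 genomic cytosines, 455 were listed in at least 1 of the 12 libraries, out of 2571 listed plus-strand cytosines on the whole mitochondrial genome. mt-Rnr1 contributed 170 of its 188 cytosines, mt-Rnr2 contributed 285 of its 304, and mt-Tv contributed 0 of its 16.

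The libraries were RNA bisulfite sequencing (RNA BS-seq) of poly(A) RNA from neural stem cells (NSCs). The cells were WT, from the subventricular zone of male C57BL/6 mice of 6 to 8wk, and all groups were cultured with EGF and bFGF for 4 days. The medium held folic acid at low (LF, 1.5 μM), median (MF, 10 μM) or high (HF, 80 μM) concentration, and each concentration had 2 replicates of total mRNA and 2 of polysome mRNA, which was pooled from the heavy sucrose gradient fractions after cycloheximide. Transcripts of the NSC markers Nes and Sox2 had listed cytosines in 12 of 12 libraries, with median coverage of at least 1114 and 762.5 reads respectively.

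Mitochondrial rRNAs are transcribed from the mitochondrial genome and form the ribosome that translates the mitochondrially encoded respiratory chain subunits. The methyltransferase NSUN4 places 5-methylcytosine (m5C) at a cytosine in the decoding region of 12S rRNA, and METTL15 places N4-methylcytosine (m4C) at a cytosine close upstream of it. Bisulfite turns unmodified cytosine into a base read as T, whereas m5C is still read as C and m4C resists only in part. The level of a cytosine is here the percentage of reads that remained C among reads of C or T, and coverage is the number of reads over it. A cytosine was called where it had 20 or more reads, a level of 10% or more and 6 or more unconverted reads. The study's further filters on signal to noise, adjusted p-value and predicted structure were not applied. A call in a library did not require a call in its replicate. A call alone therefore does not show m5C.

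The decoding region is shown first because the only rRNA cytosine called in any library lies in it. The 30 bases of chrMT:897-926 (plus strand, GRCm38) hold 16 cytosines, all printed in capitals.
12S decoding region: aCgCaCaCaCCgCCCgtCaCCCtCCtCaaa
In the next pair of 21-base stretches, chrMT:901-921 and chrMT:899-919, the capital marks the cytosine measured. C911 is the position of NSUN4 and C909 that of METTL15, 2 bases upstream, both numbered by mitochondrial position.
C911: acacaccgccCgtcaccctcc
C909: gcacacaccgCccgtcaccct
C911 is base 842 of mt-Rnr1 and lies 113 bases before its end. The first base after it is G and the next 4 are T, C, A and C.

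Several libraries stood apart before any level was compared. Over all listed cytosines, summed coverage ranged from 1186213013 to 2857966129 per library, in which a read counts once for every listed cytosine it covers. The 2 total libraries labelled HF listed no cytosine of mt-Rnr1, although the site list of the study gives the NSUN4 cytosine as covered in its HF total samples. In these libraries 25.6% and 26.5% of called cytosines of the whole table had another called cytosine within 25 bases, against 89.1% to 90.7% in the total LF and MF libraries. They are therefore named as libraries labelled HF throughout. Polysome HF replicate 2 also stood apart, with 38353 cytosines listed above a level of 90%, against 1102 to 3465 in the other 11 libraries.

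C911 was unconverted in most reads of every total LF and MF library. In total LF replicate 1, 124 of 194 reads were unconverted, a level of 63.9% (95% Wilson interval 57.0 to 70.3). In total LF replicate 2, 163 of 243 reads gave 67.1% (60.9 to 72.7). The levels sat within a few percentage points of each other, and all 4 intervals overlapped. In total MF replicate 1 the level was 67.0% (128 of 191 reads, 60.1 to 73.3) and in total MF replicate 2 it was 69.3% (156 of 225 reads, 63.0 to 75.0). The mean over these 4 libraries was 66.8% ± 2.22 (SD, n = 4). The reads carry no molecular identifiers, so PCR copies are counted more than once and these intervals cover counting error only.

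Among the total libraries, C911 was listed in LF and MF, and in the polysome libraries it was listed in HF replicate 2 alone with fewer than 20 reads, so folate was compared at C911 for total LF against total MF. The mean level was 65.5% ± 2.23 (SD, n = 2) in LF and 68.2% ± 1.64 (SD, n = 2) in MF. LF was lower by 2.68 percentage points and the groups overlapped (exact permutation test, two-sided, p = 0.667), where the smallest p that 2 against 2 libraries allow is 0.333. With reads pooled over replicates, the difference of LF minus MF was -2.59 percentage points, with a 95% Newcombe interval of -8.86 to 3.72. Fisher's exact test gave p = 0.424, and p = 0.845 after Benjamini-Hochberg adjustment over the 1842 cytosines tested in the whole table. Of these 1842 cytosines, 14 were called different between LF and MF, which is 0.76%. C911 was the 1 mitochondrial rRNA cytosine among those tested, and 0 were called.

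C909 kept a low level in each of the 4 libraries. It was unconverted in 7 of 197 reads in total LF replicate 1 (3.55%), 16 of 253 in total LF replicate 2 (6.32%), 15 of 193 in total MF replicate 1 (7.77%) and 10 of 233 in total MF replicate 2 (4.29%). The mean was 5.49% ± 1.92 (SD, n = 4), and the LF and MF libraries interleaved. Pooled over the 4 libraries, 48 of 876 reads were unconverted (5.48%, 95% Wilson interval 4.16 to 7.19). In each library the interval of C909 lay below that of C911, so the 2 cytosines differed beyond counting error within the same RNA. The counts do not separate partly resistant m4C from a low level of m5C.

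The cytosine between them, C910, was listed in total MF replicate 2 alone, with 1 unconverted read of 223 (0.448%). Across the other 16 cytosines within 30 bases of C911, total LF replicate 1, total LF replicate 2 and total MF replicate 1 listed 0. An unlisted cytosine had no unconverted read or a coverage under 10. At the coverage of the C911 and C909 pair, a count of 0 in these 3 libraries allows a level of up to 1.55%, 1.23% and 1.57%. In total MF replicate 2, 15 of the 16 were listed, with at most 2 unconverted reads each.

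**Figure D1:**
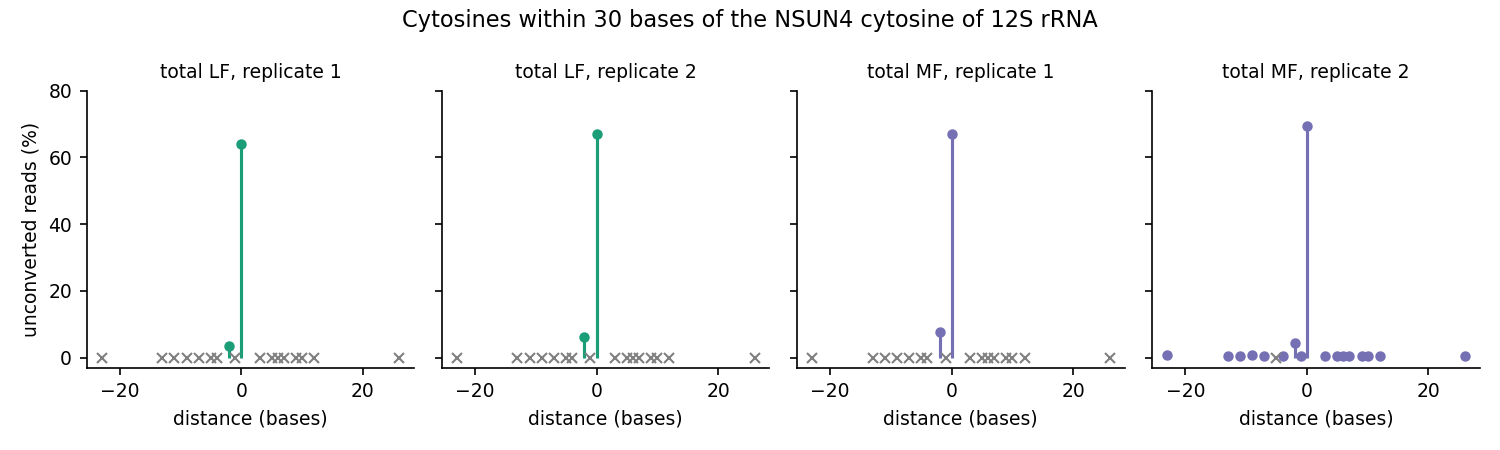
Level (percent of unconverted reads) of every genomic cytosine within 30 bases of the NSUN4 cytosine, by distance in bases, with 1 panel per total LF or MF library. Filled points with stems are listed cytosines and grey crosses are cytosines not listed, drawn at 0. The point at distance 0 is at 63.9% to 69.3%, the point 2 bases upstream at 3.55% to 7.77%, and the other listed points, all in total MF replicate 2, have at most 2 unconverted reads.

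Along the linear coordinates, the nearest other called plus-strand mitochondrial cytosine was 1873 to 1887 bases from C911 in these 4 libraries. As nothing else in the rRNAs was called, this distance reaches past the end of mt-Rnr2 and restates that absence. Distances across the start of the coordinates were not measured. Among the called cytosines of the whole table, 52.5% to 64.0% of a library's calls had a level below that of C911. Most of those calls were clustered, as 89.1% to 90.7% had another called cytosine within 25 bases. The rank therefore does not place C911 among isolated cytosines. RNAfold gave C911 a pairing probability of 0.365 at 70 °C and 0.713 at 37 °C, against medians of 0.261 and 0.447 over the 188 cytosines of mt-Rnr1. C909 was at 0.368 and 0.474. A relation between pairing and level was not tested.

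In all 4 total LF and MF libraries, 22 cytosines were listed with 20 or more reads, 6 in mt-Rnr1 and 16 in mt-Rnr2. They were listed in all 4 because each had an unconverted read in all 4, so they are not a random draw of the 455. The 5 highest median levels of mt-Rnr1 belonged to C911, C909, C488, C441 and C963, and those of mt-Rnr2 to C2380, C2411, C2449, C2016 and C1376. The 21-base stretches of those other than C911 and C909 are printed because their values follow, with the measured cytosine in capitals (plus strand, GRCm38).
C488, chrMT:478-498: aagacccaaaCtgggattaga
C441, chrMT:431-451: aactcaataaCgaaagtaatt
C963, chrMT:953-973: tctagacatcCgtttatgaga
C2380, chrMT:2370-2390: ctagggataaCagcgcaatcc
C2411, chrMT:2401-2421: ttcatatcgaCaattagggtt
C2449, chrMT:2439-2459: atcaggacatCccaatggtgt
C2016, chrMT:2006-2026: ccgcggtatcCtgaccgtgca
C1376, chrMT:1366-1386: tgaatcaactCgtctatgtgg

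C963, downstream of the NSUN4 cytosine in mt-Rnr1, had the widest spread of counts of these. It was unconverted in 1 of 196 reads of C or T in total LF replicate 1 (0.510%), 1 of 254 in total LF replicate 2 (0.394%), 3 of 185 in total MF replicate 1 (1.62%) and 11 of 224 in total MF replicate 2 (4.91%). Both MF libraries were above both LF libraries, and total MF replicate 2 held most of the reads. C963 did not reach the calling level and was tested only in a table with no level minimum, added after the data were seen. There 30 of 339671 cytosines (0.00883%) were called, and 22 mitochondrial rRNA cytosines were tested with 0 called. At C963 the pooled level was 0.444% in LF and 3.42% in MF, and Fisher's exact test gave p = 0.0015 before adjustment and p = 0.50 after it. It was the 1 member of the 22 under 0.05 before adjustment.

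C488 and C441 of mt-Rnr1 rested on 1 or 2 unconverted reads in every library. At C488 the level ran from 1.02% to 3.85%, at 52 to 98 reads. At C441 it ran from 1.67% to 5.71%, at 35 to 60 reads. LF and MF overlapped at C488. At C441 they overlapped as well, with total LF replicate 1 highest and total LF replicate 2 lowest.

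**Figure D2:**
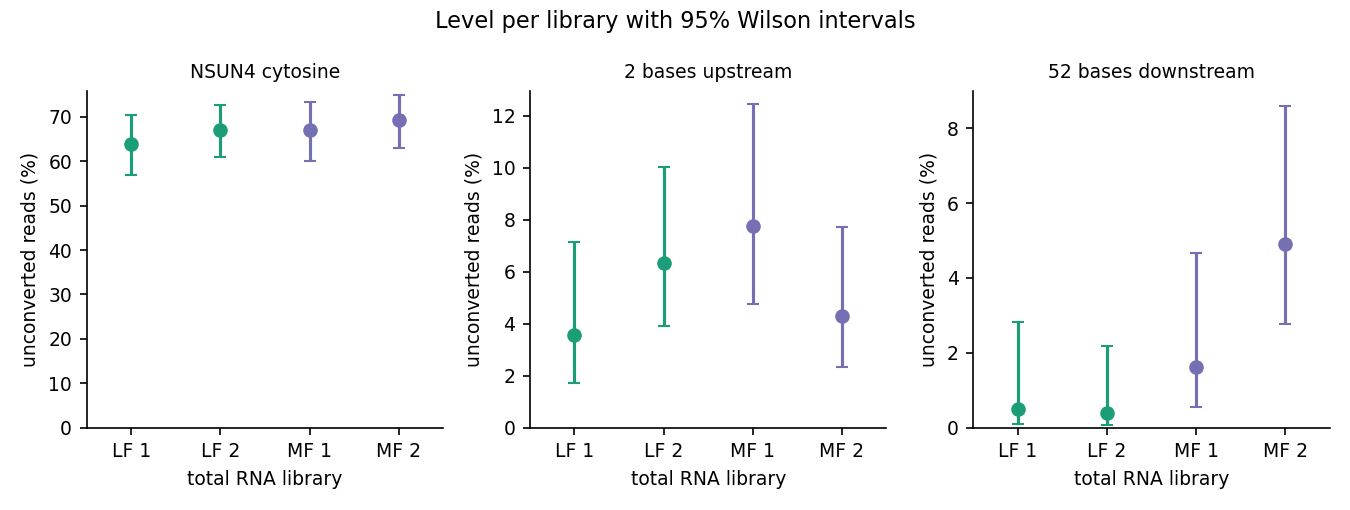
Level (percent of unconverted reads) in the 4 total libraries, LF replicates 1 and 2 and MF replicates 1 and 2, at C911 (NSUN4 cytosine), C909 (2 bases upstream) and C963 (downstream). Points are single libraries, bars are 95% Wilson intervals of the read counts, and each panel has its own axis from 0. The intervals of all 4 libraries overlap at C911 and at C909, and at C963 total MF replicate 2 is at 4.91% and the other libraries at 0.394% to 1.62%, with its interval overlapping those of total MF replicate 1 and total LF replicate 1.

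In mt-Rnr2 no cytosine of these 4 libraries came near the level of C911. The median level over the 4 libraries ran from 0.0375% to 1.12% across its 16 recurrent cytosines. C2380 had the highest median, with 2 of 56, 1 of 88, 1 of 90 and 1 of 97 reads unconverted in LF replicates 1 and 2 and MF replicates 1 and 2. C2411 was next, with 1 unconverted read in each LF library and in total MF replicate 1 (0.909% to 1.32%) and 3 of 117 in total MF replicate 2 (2.56%). C2449 had 4 unconverted reads in total LF replicate 1 (2.44%) and 1 in each of the others (0.391% to 0.439%). C2016 had 8 of 871 in total MF replicate 2 (0.918%) and 1 read in each of the others (0.109% to 0.183%). At these 3 positions a single library stood above the rest.

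The deepest stretch of mt-Rnr2, chrMT:1273-1376, gave the tightest limits. It holds 24 cytosines, of which 17, 18, 19 and 24 were listed in total LF replicates 1 and 2 and total MF replicates 1 and 2. Coverage there was 2347 to 3207 reads, and levels ranged from 0.0312% to 0.263%. At that coverage an unlisted cytosine has an upper limit of 0.0999% to 0.128% (3 counts over the lowest coverage of the stretch in that library). For comparison, listed cytosines with a level under 5% pooled to 0.139% to 0.148% over the whole table in the same 4 libraries. Unlisted cytosines, among them any without an unconverted read, are left out of that value, so it is not a background for all cytosines. C1376, the last cytosine of the stretch, had 3, 5, 3 and 5 unconverted reads, or 0.128%, 0.165%, 0.114% and 0.168%.

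Most listed rRNA cytosines rested on a single unconverted read. The total LF libraries listed 249 and 257 of them, the total MF libraries 186 and 221, and the libraries labelled HF 95 and 106. Of these, 69.1% to 80.2% had exactly 1 unconverted read. In total LF and MF, 11 cytosines had 6 or more unconverted reads in any library, 3 in mt-Rnr1 (C911, C909 and C963) and 8 in mt-Rnr2. The 8 of mt-Rnr2 had levels of 0.190% to 0.918%, and 9 of the 11 reached 6 reads in 1 library only. Apart from C911 and C909, the highest level at a coverage of at least 20 was 5.71% and 7.69% in the LF libraries and 5.0% and 4.91% in the MF libraries.

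Listed cytosines fell next to each other. In total LF and MF, 65.1% to 81.1% of a library's listed rRNA cytosines lay in runs of at least 10 genomic cytosines that were all listed. The longest run held 44 and 62 cytosines in the LF libraries, over 225 and 327 bases, and 35 and 47 in the MF libraries, over 126 and 220 bases. Among cytosines in such runs, 190 were in a run in 1 of the 4 libraries, 155 in 2, 58 in 3 and 0 in all 4. Whether the cytosines of a run were unconverted on the same reads was not tested, since the lists hold no single reads.

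**Figure D3:**
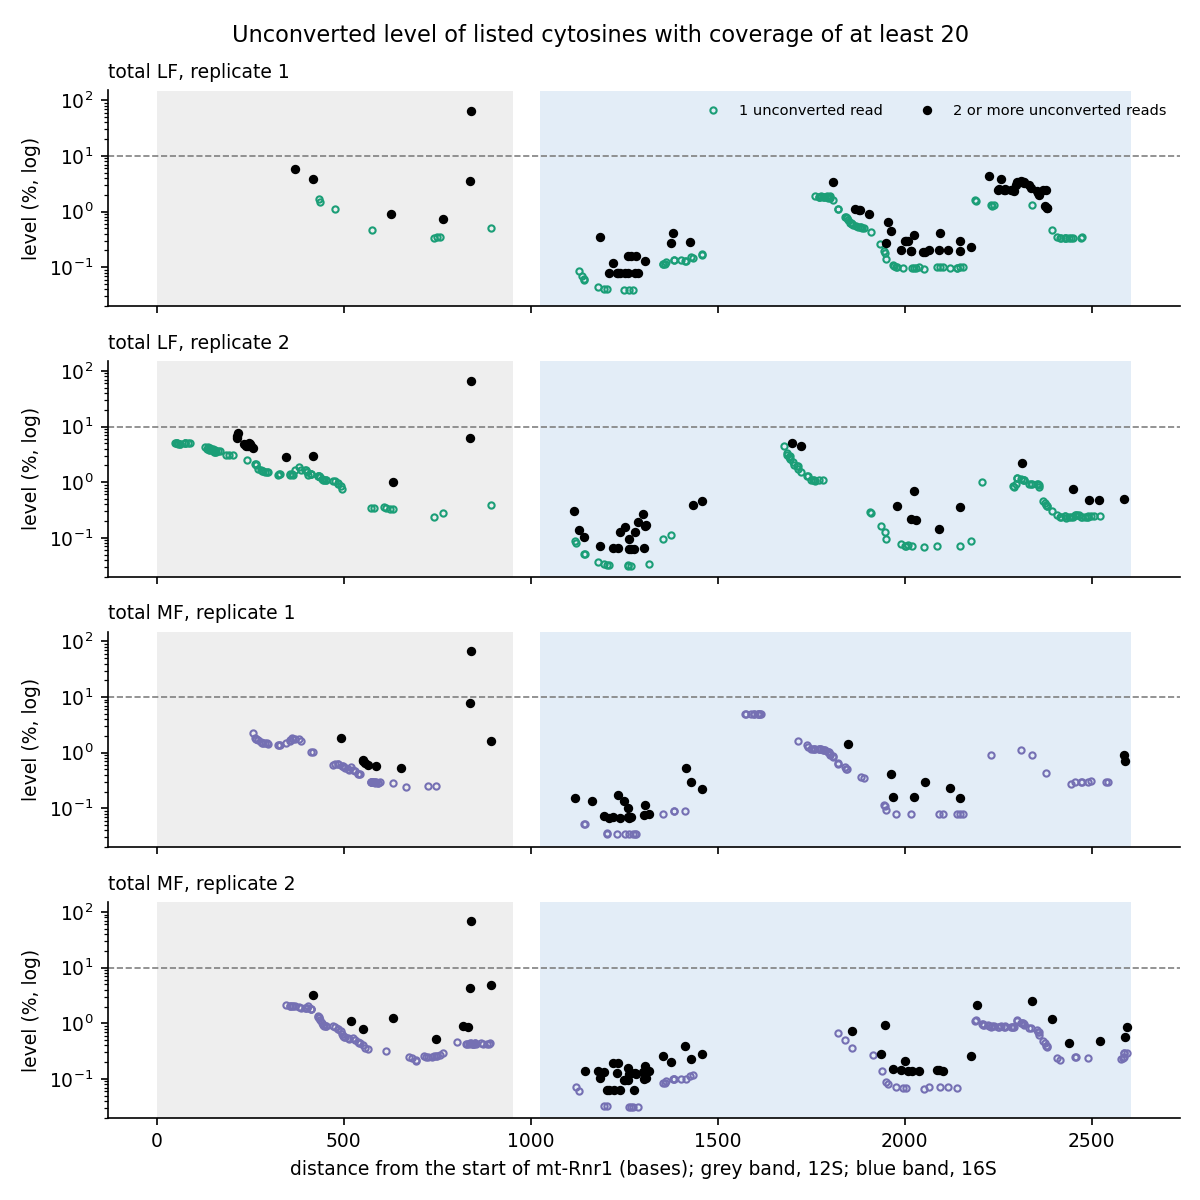
Level of each listed rRNA cytosine with a coverage of at least 20 (percent, log scale) by distance from the start of mt-Rnr1 in bases, with 1 panel per total LF or MF library. Open circles had 1 unconverted read, black circles 2 or more, and the dashed line is the 10% calling level. C911 is the only point above the line in each panel, and the open circles trace the value of 1 read over the coverage.

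C911 was called in each total LF and MF library and nothing else in the rRNAs was called in any of the 12. For the listed cytosines with a single unconverted read, the level is 1 read over the coverage, which is the lowest level a listed cytosine can have. Over the 22 recurrent cytosines, the median level was 0.171% and 0.152% in the LF libraries and 0.111% and 0.191% in the MF libraries. The groups overlapped (exact permutation test, two-sided, p = 1.000, smallest possible p 0.333).

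Coverage itself was uneven along the rRNAs. In segments of 100 bases from the start of mt-Rnr1, the median coverage of listed cytosines rose from 10 to 20 reads in the first to 285 to 399 at chrMT:770-869. It was highest in the 16S segment chrMT:1270-1369 (2530.5 to 3168). No cytosine was listed in any library between C963 and position 1185. That gap of 221 bases holds 38 genomic cytosines, 5 of mt-Rnr1, all 16 of mt-Tv and 17 of mt-Rnr2. An unlisted cytosine had no unconverted read or a coverage under 10, so the coverage inside this gap is not known. For the coverage of a whole rRNA in bulk RNA, fewer cells with it and less of it per cell cannot be told apart.

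A stretch of low coverage lay inside mt-Rnr2. Median coverage fell from 644 to 890 reads at chrMT:1470-1569 to 14 to 18 at chrMT:1570-1669 and 15 to 20 at chrMT:1670-1769, then was 159 to 236.5 at chrMT:1870-1969. In the last 3 of these segments the values come from 3 of the 4 libraries, and total MF replicate 2 listed no cytosine from position 1570 to 1769. A search of the rRNA sequence against GRCm38 found 9 nuclear matches. The 1 with at least 95% identity lay on chromosome 10 and matched chrMT:1512-1881 over 370 bases at 97.8% identity, across the low stretch. The files were made from uniquely aligned reads. The part of that copy in the low coverage was not tested.

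**Figure D4:**
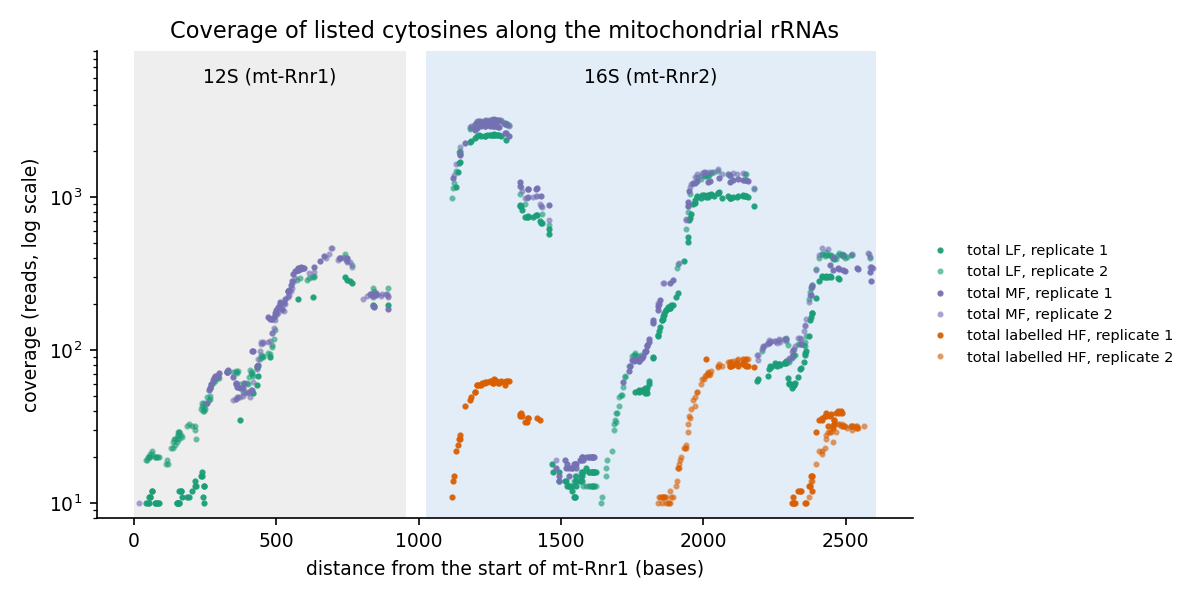
Coverage (reads, log scale) of every listed cytosine by distance from the start of mt-Rnr1 in bases, in the 6 total libraries. The grey band is 12S and the blue band 16S. The LF and MF libraries have a peak of up to 3207 reads in the first part of 16S. Further into it lies a trough, where the segment medians of 3 of these 4 libraries are 14 to 20 reads, and the libraries labelled HF have no point in 12S.

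In the libraries labelled HF, all 95 and 106 listed cytosines were in mt-Rnr2, with median coverage of 39 and 32 reads and a maximum of 87 in both. At the same cytosines, the mean coverage of the total LF and MF libraries was 25.4 and 15.8 times higher (median ratio over 95 and 96 shared cytosines). With a coverage of at least 20, their median level was 2.78% and 3.12%, where 1 read at a coverage of 39 or 32 is itself of that size. No cytosine of these libraries was called. C911 and C909 were not listed there. For total HF against total MF, 3 rRNA cytosines had 20 or more reads in all 4 libraries, and none was called in a condition, so none could be tested.

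The polysome libraries listed almost no mitochondrial rRNA cytosine. Polysome LF listed 0 and 6 rRNA cytosines, polysome MF 0 and 1 and polysome HF 1 and 9, with coverage summed over them of 0 to 341 per library. The 9 cytosines of polysome HF replicate 2 included C911, at 8 of 11 reads, and C909, at 1 of 11. They also included C2408 of mt-Rnr2, at 5 of 15 reads (33.3%), which like C911 was under the coverage minimum. In the other 5 polysome libraries C911 was not listed, so it had no unconverted read or a coverage under 10. No rRNA cytosine could be tested in the 5 comparisons that involve polysome libraries.

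The number of called rRNA cytosines was 0 in 6 of 6 polysome libraries, and in total mRNA it was 1 in each LF and MF library and 0 in those labelled HF. The mean difference of polysome minus total was -0.667 cytosines per library (exact permutation within folate concentration, two-sided, p = 0.0556). It could not pass 0.05, because with a count of 0 in every HF library 0.0556 is the smallest p possible. With 20 or more reads, rRNA cytosines were listed in polysome MF replicate 2 (1) and polysome HF replicate 2 (5) and in no other polysome library. The lists do not tell low coverage from full conversion at the unlisted cytosines.

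Plus-strand mitochondrial cytosines at any position downstream of mt-Rnr2, taken without regard to gene, differed from those of the rRNAs in the share called. Of 2116 such cytosines, 622 to 755 were called in the total LF and MF libraries (29.4% to 35.7%), against 1 of the 455 rRNA cytosines (0.220%). The study's further filters were not applied to these calls, so the shares are not shares of m5C. In the same libraries, 89.1% to 90.7% of called cytosines of the whole table had another called cytosine within 25 bases. Over the whole table, 2641 of 1814882 and 2150 of 2001678 listed cytosines were called in total LF replicates 1 and 2. In total MF replicates 1 and 2 it was 2399 of 1840615 and 2464 of 2001605. In the rRNAs it was 1 of 249, 257, 186 and 221 listed, in the same order. The rRNA share was thus not below that of the whole table. In the libraries labelled HF the downstream shares were 38.6% and 33.0% against 0 in the rRNAs, and in the polysome libraries 0.142% to 10.3% against 0. In the 6 total libraries the share was lower in the rRNAs in 6 of 6, and the mean difference of rRNA minus downstream was -33.6 percentage points (exact sign-flip test over libraries, two-sided, p = 0.0312, the smallest that 6 libraries allow). This restriction was chosen after the data were seen. The 2 libraries labelled HF enter it with 77 and 76 rRNA cytosines at 20 or more reads, none of them in mt-Rnr1. With only the 4 total LF and MF libraries, the exact sign-flip test gave p = 0.125, the smallest possible. Over all 12 libraries the mean difference was -18.5 percentage points (exact sign-flip test, two-sided, p = 0.000488), but 4 polysome libraries listed no rRNA cytosine with 20 or more reads, and in these the lists do not tell full conversion from low coverage. With only cytosines listed in a library at a coverage of at least 20 as the denominator, 8 libraries had both shares, and the mean difference was -39.5 percentage points (exact sign-flip test, two-sided, p = 0.00781). Polysome MF replicate 2 and polysome HF replicate 2 enter that value with 1 and 5 rRNA cytosines only. On that denominator the rRNA share was 0.441% to 0.595% in total LF and MF against 39.0% to 47.7% downstream. Median coverage of listed cytosines was 90 to 257 reads in the rRNAs of the total LF and MF libraries against 89.5 to 131.5 downstream, and the libraries labelled HF had 39 and 32 reads against 30 and 29. In the 4 polysome libraries that listed any rRNA cytosine it was 10.5 against 25 (LF replicate 2), 38 against 118.5 (MF replicate 2), 12 against 79 (HF replicate 1) and 24 against 20 (HF replicate 2). With a coverage minimum of 50, the downstream share in total LF and MF was 18.9% to 21.7% and the rRNA share was again 0.220%. The mean difference over the 12 libraries was then -9.61 percentage points, with 11 of 12 libraries below 0 (exact sign-flip test, two-sided, p = 0.000977). Polysome HF replicate 2 was the only polysome library that listed an rRNA cytosine at that coverage. In the remaining polysome libraries the rRNA share could only be 0, so their sign carries no information on conversion.

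**Figure D5:**
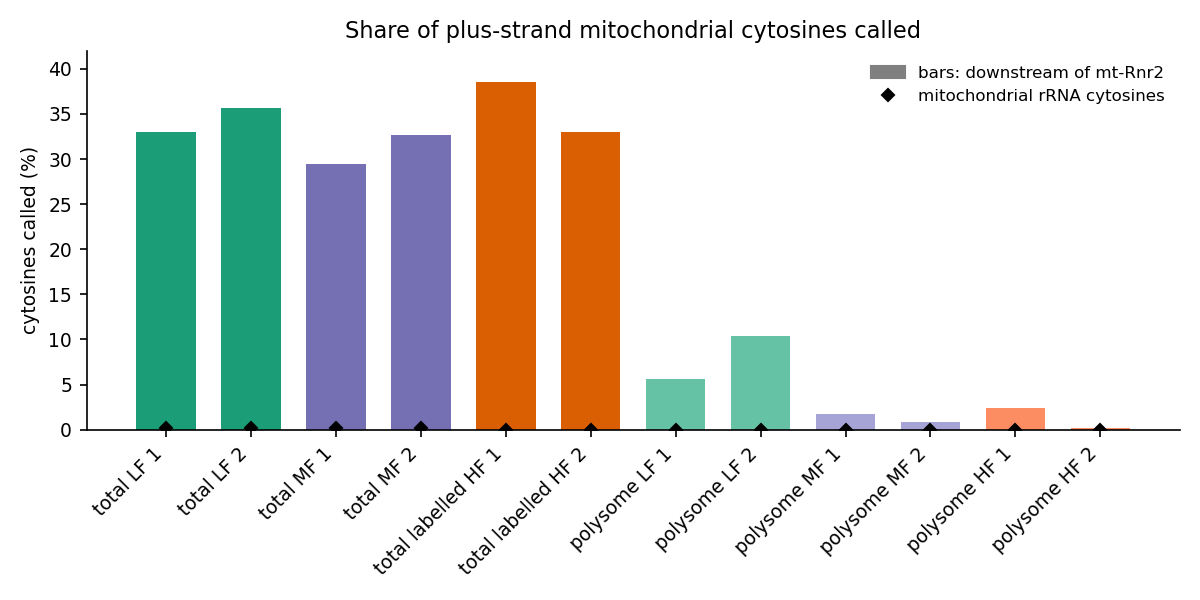
Share of plus-strand mitochondrial cytosines called in each of the 12 libraries (percent). Bars are cytosines downstream of mt-Rnr2 and black diamonds are mitochondrial rRNA cytosines. The diamonds are at 0.220% in the 4 total LF and MF libraries and at 0 in the other 8. In polysome LF replicates 1 and 2, MF replicate 1 and HF replicate 1 no rRNA cytosine was listed with 20 or more reads, and a diamond at 0 there does not tell full conversion from low coverage. The libraries labelled HF listed no cytosine of mt-Rnr1, so the same limit holds for that part of their diamonds.

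Within the rRNAs, the called share was 0.588% in mt-Rnr1 and 0 in mt-Rnr2 in each total LF and MF library, and 0 in both in the other 8, of which only polysome HF replicate 2 listed any cytosine of mt-Rnr1. The mean difference over the 12 libraries was 0.196 percentage points (exact sign-flip test, two-sided, p = 0.125). With cytosines listed at 20 or more reads as the denominator it was 2.16 percentage points over the 5 libraries that had both shares (exact sign-flip test, two-sided, p = 0.125), with 0.990 to 7.14 in the total LF and MF libraries. Both values rested on C911 alone, which was called in 4 libraries. With a difference in these 4 only, 0.125 is the smallest p that either test could give.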

How the data were processed

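RNA BS-seq lists of 12 libraries were analysed. Per the study's methods, the authors used fastp for trimming, meRanGh for unique alignment to mm10 and meRanCall for calling, and the labels also name R 4.1.1. The deposited counts are coverage and unconverted reads per cytosine, which the authors did not normalize, and the deposited methylation level is a fraction of unconverted over C and T reads. Each list starts at a coverage of 10 and 1 unconverted read. Whether it precedes the authors' filter on reads with several unconverted cytosines is not given in the sources used here.

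The cytosines and tests were chosen with earlier results of these data known. Calls took 20 or more reads, a level of 0.1 or more and 6 or more unconverted reads. LF and MF were compared by Fisher's exact test on pooled reads over the whole table with Benjamini-Hochberg adjustment at 0.05. Of 7 such comparisons in the design, 6 had no rRNA cytosine to test. As alternatives, limma 3.58.1 was run on log2 odds (pseudocount 0.5) with and without a replicate block, with weights from the read counts, since an unweighted fit failed on simulated data. Named cytosines were C911, C909 and, per gene, the 5 with the highest median level. That rule and the median level asked for 20 reads in all 12 libraries, which no cytosine had, so the 4 total LF and MF libraries were used. Wilson and Newcombe intervals are at 95%, and upper limits for a count of 0 use 3 counts. Deviations of same-number replicates were weakly correlated (0.0908, 2 pairs), and a check on 2 pairs cannot show whether the libraries were paired. The main tests took them as unpaired. Nuclear copies were sought with blastn 2.17.0 and pairing was predicted with ViennaRNA 2.7.2 (longest pair span 150 bases). Gene ends came from GENCODE vM21 on GRCm38. Coverage, from 10 to 3207 reads per listed rRNA cytosine, limits the precision.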

Additional observations from a re-analysis of the deposited data

Results flagged for a closer look

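C911, the NSUN4 cytosine of 12S rRNA, had a level of 72.7% in polysome HF replicate 2 (8 of 11 reads, 95% Wilson interval 43.4 to 90.3), a library that the comparisons at this position could not use because its coverage is under 20. It was singled out as a signal in data outside those comparisons, and the other 5 polysome libraries did not list C911. The same library listed 38353 cytosines of the whole table above a level of 90%, and the part of this in the level at C911 was not tested. It also listed C2408 of mt-Rnr2 at 33.3% (5 of 15 reads), named here after its value was seen.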

How the results depend on the processing

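Of 78 alternative values over 6 results, 74 were counted as unchanged. For tests this means the same direction and side of 0.05, and for the 9 counts of differential cytosines that 0 stayed 0. C911 was the only rRNA cytosine tested for these counts, except with no level minimum, where 22 were tested. With 2 libraries a group, the LF against MF permutation tests cannot pass 0.05, so their sides say nothing about stability. The same holds for the 18 alternatives of the mt-Rnr1 minus mt-Rnr2 share, where the smallest possible p is 0.125 or more. It also holds for most alternatives of the polysome minus total number, where the smallest p with all libraries is 0.0556. The number of called rRNA cytosines, polysome minus total, ranged from -0.8 to -0.6 when each library was left out. Without total HF replicate 1 or total HF replicate 2 it was -0.8 with p = 0.0278 (exact permutation test), which passes 0.05. The groups are then unequal in size, so the mirror arrangement has a smaller difference and no longer adds to p. Without all libraries labelled HF, of both fractions, the difference was -1 with an exact p of 0.0556, the smallest possible, which does not pass. The replicate block of this number, a sign-flip over libraries of the same folate concentration and number, gave -0.667 with an exact p of 0.125, the smallest possible. With a coverage minimum of 10, added after the data were seen, the difference was -0.5 with an exact p of 0.278. The median level, LF minus MF, ranged from -0.0297 to 0.050 percentage points when each library was left out, and it turned to -0.0297 without total MF replicate 1; the main value was 0.0102, and 0.00238 at a coverage minimum of 50. The difference at C911, LF minus MF, ranged from -4.26 to -1.10 percentage points when each library was left out, and the replicate block gave -2.68 (exact p 0.5, the smallest possible with 2 pairs). The called share of rRNA minus downstream cytosines was -32.4 percentage points with an exact p of 0.125, the smallest possible, when only the 4 total LF and MF libraries were used. Over the 12 libraries it went from -18.5 to -9.61 at a coverage minimum of 50 and to -12.2 at a level minimum of 0.2. It had a range of -20.2 to -16.7 when each library was left out. These values include polysome libraries with no listed rRNA cytosine at the coverage minimum, where the rRNA share could only be 0. In the LF against MF table, 0 rRNA cytosines were called under each of 9 alternatives, while calls over all cytosines went from 14 of 1842 tested to 15 of 961 at a coverage minimum of 50, 8 of 1383 at a level minimum of 0.2, 0 of 1915 without total LF replicate 1, 43 of 1938 without total LF replicate 2, 6 of 1940 without total MF replicate 1, 26 of 1917 without total MF replicate 2, 0 of 1842 by limma (289 at an unadjusted p under 0.05) and 10 by limma with the replicate block. The cause of these moves was not tested. No value could be computed for the level at C911 or the median level between polysome and total or between HF and MF, nor for the 6 comparisons without a testable cytosine.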
